A study of Mus musculus with 12 samples.

Results

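The 10 genes described here carry out iron handling in the mouse retina: the ferritin subunits Fth1 and Ftl1, the transferrin receptor Tfrc, transferrin (Trf), the divalent metal transporter Slc11a2, the exporter ferroportin (Slc40a1), the ferroxidases Cp and Heph, and the iron regulatory proteins Ireb2 and Aco1. They were chosen by gene symbol, and all 10 were found among the 25124 genes of each table. RNA was sequenced from 12 bulk retinas of wild-type mice, which form 6 groups with 2 libraries each. For the single-IOP series, 1 eye of each mouse was held at an intraocular pressure (IOP) of 30 mmHg for 1 h and retinas were taken 2 days later, giving the groups 3mo IOP, 3mo control, 18mo IOP and 18mo control by the age of the animal in months. For the repeated-IOP series, 4 such elevations were given every other week, beginning at an age of 3 months, and the groups 4xIOP and 4xIOP control were collected 2 days after the last. Every control was the untreated fellow eye of a treated animal, so no retina came from an animal without a treated eye, and the 4xIOP animals were older at collection than the 3mo animals.

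Iron is needed by photoreceptors, which renew their outer segment membrane continually, and free iron drives oxidative damage, so cells keep it bound. Transferrin carries ferric iron outside cells, the transferrin receptor takes it in, Slc11a2 moves it across the endosomal membrane, ferritin cages of heavy (Fth1) and light (Ftl1) subunits store it, and ferroportin lets it out with the help of the ferroxidases ceruloplasmin (Cp) and hephaestin (Heph). Iron regulatory proteins (Aco1 and Ireb2) bind a hairpin, the iron-responsive element, in messenger RNAs: in a 5′ untranslated region binding blocks translation, and in the 3′ untranslated region of Tfrc it protects the transcript from decay. RNA levels therefore show only a part of this control for ferritin and ferroportin.

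The hairpins are shown because a strict search pattern found a 5′ element in some members, several 3′ elements in Tfrc and no match in the others. The search was for the loop CAGTGN with 5 paired bases on each side (G with U allowed) and an unpaired C before the stem, in the untranslated regions of GENCODE M21 (GRCm38, the same build as mm10). Each is printed 5′ to 3′ on the strand of the transcript, with the loop in capitals.
Fth1 5′ untranslated region, chr19:9982731-9982760, plus strand: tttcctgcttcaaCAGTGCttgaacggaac
Ftl1 5′ untranslated region, chr7:45459779-45459808, minus strand: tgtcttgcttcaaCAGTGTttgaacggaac
Slc40a1 5′ untranslated region, chr1:45925465-45925494, minus strand: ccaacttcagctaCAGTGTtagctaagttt
Tfrc 3′ untranslated region, chr16:32631218-32631247, plus strand: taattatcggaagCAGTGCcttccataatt
Tfrc 3′ untranslated region, chr16:32631597-32631626, plus strand: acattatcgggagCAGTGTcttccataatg
Tfrc 3′ untranslated region, chr16:32631662-32631691, plus strand: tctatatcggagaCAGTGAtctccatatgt
Tfrc 3′ untranslated region, chr16:32631709-32631738, plus strand: taattatcgggaaCAGTGTttcccataatt
The pattern occurred in 5′ untranslated regions of 31 of 20899 genes (0.148%) and in 3′ untranslated regions of 129 of 21028 genes (0.613%). The 4 matches in Tfrc began 881, 1260, 1325 and 1372 bases downstream of the stop codon, and all 7 matches lay on the isoform that was counted. No match was found in Trf, Cp, Heph, Slc11a2, Ireb2 or Aco1, which says only that these letters and pairings are not there. An element with another loop or a broken stem would have been missed, so these members are not shown to lack one.

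Levels are given as FPKM, read counts divided by transcript length and by the tags of the library, which puts genes of different length on 1 scale, although the libraries differed in how FPKM depended on length. Each library held between 39766237 and 59455057 tags, and the members rested on 90 to 55816 reads per library, the fewest for Slc40a1. Both tables were normalised separately, and levels are therefore tested only within a series. Fold changes are on the log2(FPKM + 0.5) scale from limma, and a call needed both an adjusted p (Benjamini-Hochberg, over all genes tested) of 0.05 or below and a change of at least 2-fold (1 on the log2 scale). Over all genes tested, log2 fold changes had a median of 0.16 and 0.09 with age in control and IOP retinas, 0.13 and 0.09 with IOP at 3 and 18 months, and 0.10 in the repeated-IOP series, and the members' values stand against these medians. The libraries differed beyond their groups. Transcripts shorter than 1000 bases had a median FPKM 1.89 and 4.70 times that of transcripts with 4000 bases or more in the 3mo control libraries, 3.26 and 2.99 times in the 3mo IOP libraries, and 1.20 to 1.36 times in the 4 libraries from 18mo retinas. In the repeated-IOP series this ratio was 1.76 and 1.63 in 4xIOP control, and 1.45 and 2.20 in replicates 1 and 2 of 4xIOP. Markers of the retinal pigment epithelium (8 genes, summed) lay between 174 and 487 FPKM in the 3mo libraries and between 2.19 and 9.97 in the 18mo libraries. Rod markers (6 genes) summed to at least 4444 FPKM in every library. In bulk tissue, a change in the number of cells and a change in RNA per cell cannot be told apart.

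Iron storage rests on both ferritin subunits. Fth1 (NM_010239, chr19:9982646-9985111) measured 396 and 544 FPKM in the 3mo controls, 646 and 569 in 3mo IOP, 439 and 402 in the 18mo controls, and 545 and 624 in 18mo IOP. Ftl1 (NM_010240, chr7:45457944-45459886) measured 80.2 and 139 FPKM in the 3mo controls, 249 and 143 in 3mo IOP, 72.3 and 71.3 in the 18mo controls, and 129 and 168 in 18mo IOP. Both ferritin transcripts were higher in each IOP retina than in either control of the same age.

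In the repeated-IOP series Fth1 was at 59.4 and 58.5 FPKM in 4xIOP control and at 100 and 130 in 4xIOP. Ftl1 was at 61.5 and 66.7 FPKM in 4xIOP control and at 112 and 152 in 4xIOP. Again no 4xIOP retina overlapped the controls, and the control pairs lay close together. The Fth1 level was of another order in this series: the ratio of Fth1 to Ftl1 within a library ran from 2.59 to 6.07 in the single-IOP series and from 0.851 to 0.966 in the repeated-IOP series, although both tables list the same transcripts with the same lengths of 936 and 964 bases. The cause of that difference between the series was not tested.

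Iron uptake was represented by Tfrc, Trf and Slc11a2. Tfrc (NM_011638, chr16:32608896-32632794), which carries the 4 hairpins of the 3′ untranslated region shown above, measured 54.6 and 65.6 FPKM in the 3mo controls, 35.3 and 45.4 in 3mo IOP, 30.7 and 33.5 in the 18mo controls, and 24.6 and 19.4 in 18mo IOP. In the repeated-IOP series it measured 37.7 and 27.8 FPKM in 4xIOP control and 14.9 and 23.0 in 4xIOP. Every IOP retina lay below both of its controls, and the 18mo controls lay below the 3mo controls.

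Trf (NM_133977, chr9:103208876-103230286), the carrier that Tfrc takes in, was at 43.2 and 45.3 FPKM in the 3mo controls, 129 and 52.7 in 3mo IOP, 29.7 and 34.5 in the 18mo controls, and 110 and 303 in 18mo IOP. In the repeated-IOP series it was at 22.5 and 29.9 FPKM in 4xIOP control and at 108 and 202 in 4xIOP. The 6 controls stayed between 22.5 and 45.3 FPKM, whereas the 2 IOP libraries of each group lay far apart. Slc11a2 measured 3.71 to 5.78 FPKM over the 4 3mo libraries, 6.99 to 8.44 over the 4 18mo libraries, and 6.62 to 8.19 over the 4 libraries of the repeated-IOP series, with IOP and control overlapping in each.

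Iron export was represented by a transporter at a low level and a ferroxidase at a high one. Slc40a1 measured 0.643 to 0.715 FPKM in the 3mo libraries, 1.14 to 1.49 in the 18mo libraries and 0.872 to 1.44 in the repeated-IOP series, and IOP and control overlapped in all 3. Cp (NM_007752, chr3:19957054-19992998) was at 41.0 and 47.2 FPKM in the 3mo controls, 88.5 and 109 in 3mo IOP, 52.4 and 44.0 in the 18mo controls, and 130 and 243 in 18mo IOP. In the repeated-IOP series Cp was at 14.9 and 23.6 FPKM in 4xIOP control and at 116 and 202 in 4xIOP. Heph, the membrane-bound relative of Cp, was at 1.50 and 1.98 FPKM in the 3mo controls, 2.75 and 2.05 in 3mo IOP, 2.45 and 2.33 in the 18mo controls, 4.60 and 3.86 in 18mo IOP, 1.35 and 1.47 in 4xIOP control, and 1.99 and 1.93 in 4xIOP. Both ferroxidases were higher in every IOP retina than in its controls, Cp by the wider margin.

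Of the regulators, Ireb2 measured 10.4 to 14.0 FPKM in the 3mo libraries, 9.40 to 10.3 in the 18mo libraries and 4.63 to 6.91 in the repeated-IOP series. Aco1, which is also the cytosolic aconitase when it holds an iron-sulphur cluster, measured 5.41 to 8.14 FPKM in the 3mo libraries, 8.71 to 9.72 in the 18mo libraries and 7.36 to 10.3 in the repeated-IOP series. Neither gene passed both thresholds in any comparison.

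**Figure D1:**
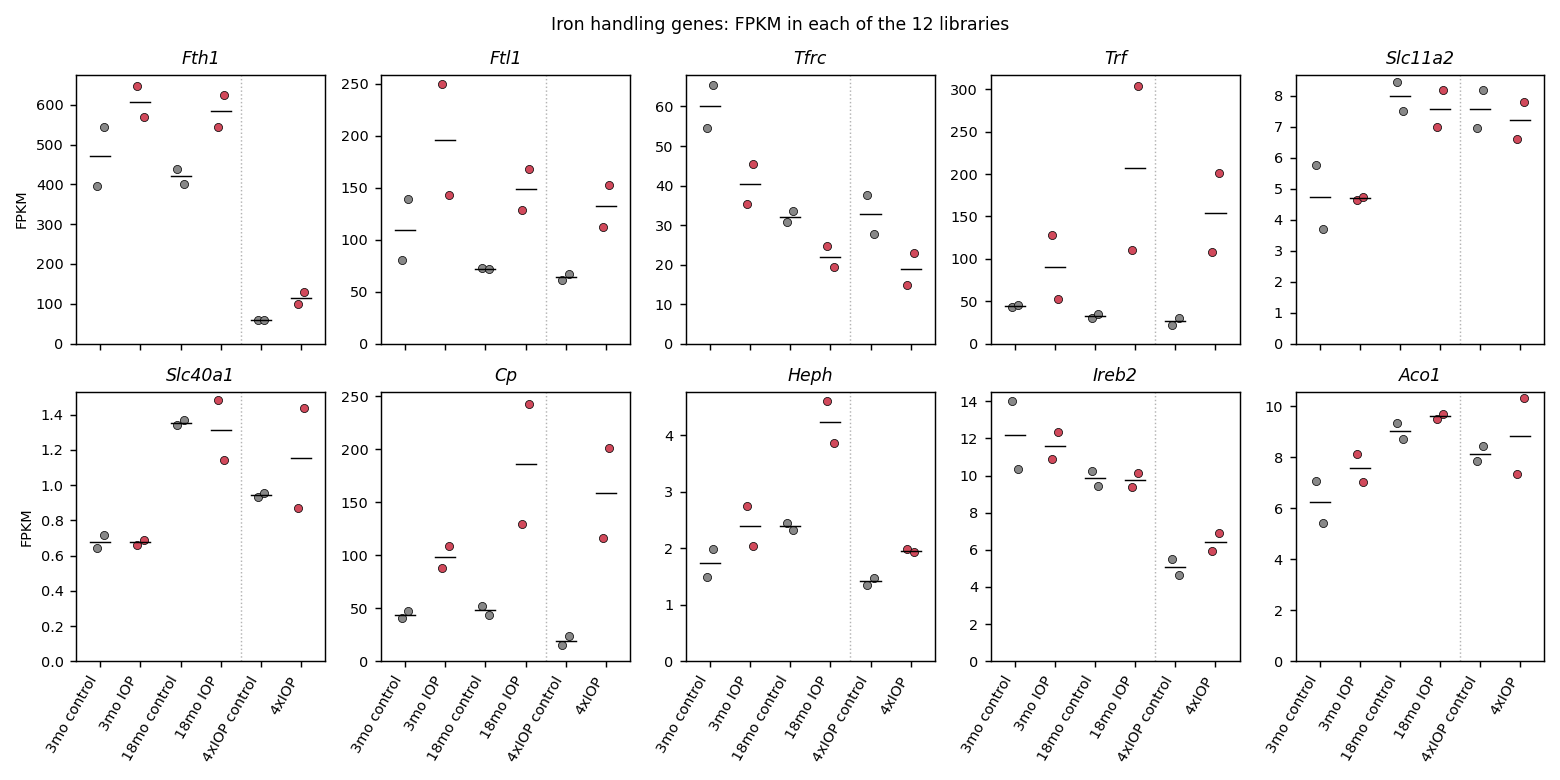
FPKM of each of the 10 iron handling genes (vertical axes, linear from 0) in the 12 libraries, by group. Points are single libraries, grey for control and red for IOP, and bars are means of 2; the dotted line divides the series, which were normalised separately. Fth1, Ftl1, Trf, Cp and Heph lie higher and Tfrc lower in IOP than in control libraries in each pair of groups.

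Repeated IOP gave the only calls among the members. Cp rose 8.27-fold in the group mean, from 19.2 ± 6.12 to 159 ± 60.3 FPKM (SD, n = 2), with a fitted log2 fold change of 3.00 ± 0.35 (SE) and a limma adjusted p of 7.46e-05. Trf rose 5.91-fold, from 26.2 ± 5.22 to 155 ± 66.5 FPKM (SD, n = 2), with a log2 fold change of 2.48 ± 0.35 and a limma adjusted p of 0.000385. Thus 2 of 10 members were called, both higher, where 6.15% of the 13718 genes tested were called in either direction. The members had a median log2 fold change of 0.34, against 0.10 over all genes.

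Another 3 members had an unadjusted p under 0.05 after 4 elevations without passing the adjusted p. The limma fit gave Ftl1 a log2 fold change of 1.02 ± 0.32 (adjusted p = 0.0840), Fth1 one of 0.95 ± 0.31 (adjusted p = 0.10) and Tfrc one of -0.79 ± 0.29 (adjusted p = 0.151). Without 4xIOP replicate 1, Fth1 (1.13, adjusted p = 0.0235) and Ftl1 (1.24, adjusted p = 0.0226) were called as well, which made 4 members, while 798 genes were called in that refit against 843 as reported. Without 4xIOP replicate 2 they were at 0.76 (adjusted p = 0.0660) and 0.80 (adjusted p = 0.0703), and without either control library both had an adjusted p of 1.00. Cp and Trf passed whichever library was left out.

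Cell type markers moved with these calls. In 4xIOP the 8 markers of microglia and macrophages summed to 57.2 and 58.9 FPKM against 10.9 and 10.5 in the controls, with 7 of 8 called higher. The 5 lens markers summed to 47.2 and 109 FPKM against 4.30 and 0.423, and all 5 were called higher. The part of these cells in the change of Cp and Trf was not tested. Markers of the retinal pigment epithelium went against the direction of Trf and Cp, at 3.41 and 6.70 FPKM in 4xIOP against 25.3 and 33.9 in the controls, with all 3 of the tested genes called lower. Muller glia markers gave no single direction: their sum was lower, at 443 and 565 against 742 and 777 FPKM, while 4 of 6 genes were higher and 2 lower without overlap, with a median log2 fold change of 0.44, 1 called higher and none lower. Rod markers summed to 4444 and 6701 FPKM against 9055 and 9456, with 5 of 6 lower without overlap and none called. Endothelial markers summed to 48.7 and 54.0 FPKM against 21.2 and 27.8, with 1 of the 4 tested called higher. The part of these shifts was not tested either. Oligodendrocyte markers, a list that holds the myelin genes, were at 4.10 and 4.46 FPKM against 4.66 and 4.72.

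**Figure D2:**
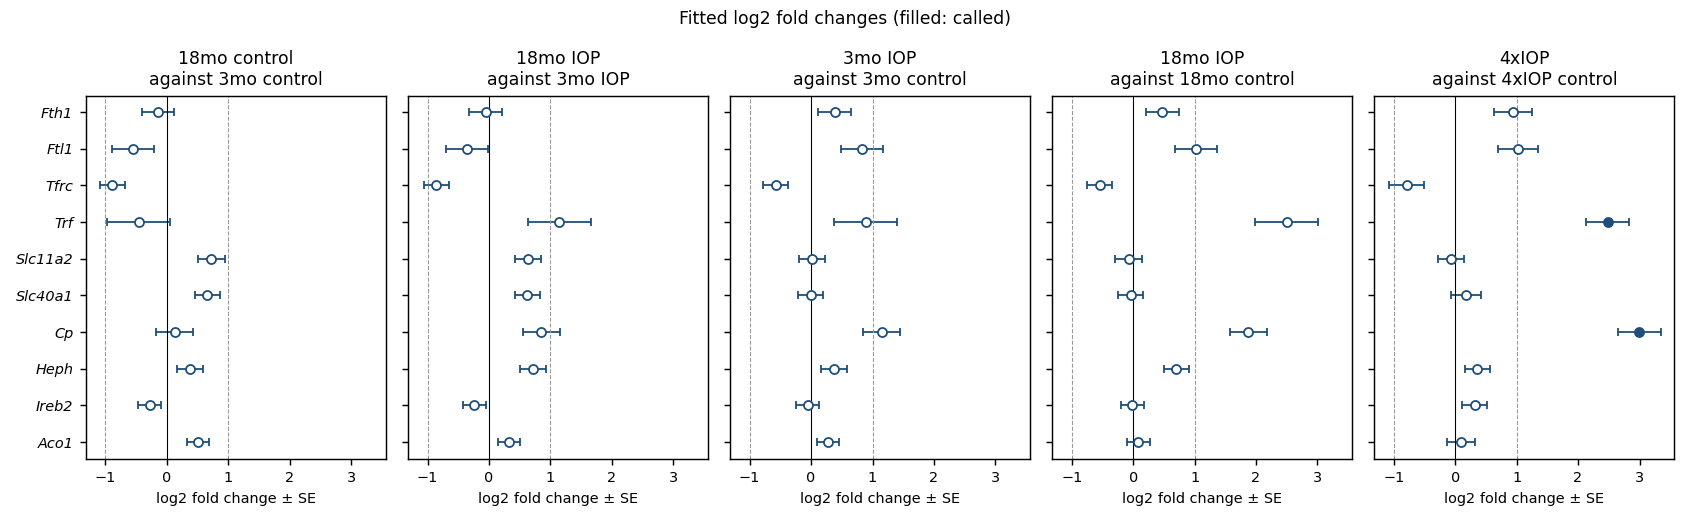
Fitted log2 fold change (horizontal axis, ± SE) of each member in 5 comparisons. Filled points passed both thresholds, and dashed lines mark a change of 2-fold. Cp and Trf in 4xIOP are the filled points; the point of Tfrc lies left of 0 in all 5 panels.

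A single elevation was examined at each age to ask how old and young retinas answer the same pressure. At 3 months 0 of 10 members were called, where 0.575% of the 13731 genes were called. The limma fit gave Cp a log2 fold change of 1.15 ± 0.30 (adjusted p = 0.188), Ftl1 one of 0.83 ± 0.34 (adjusted p = 0.535) and Tfrc one of -0.57 ± 0.21 (adjusted p = 0.422). These were the 3 members with an unadjusted p under 0.05. For Fth1 the log2 fold change was 0.38 ± 0.27 (adjusted p = 0.882).

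The 3mo IOP pair was uneven for Trf. The log2 fold change of Trf at 3 months was 0.89 ± 0.51 (limma adjusted p = 0.776), and without 3mo IOP replicate 1 it was 0.25. That library also had the higher sum of retinal pigment epithelium markers, 487 FPKM against 198 in the other 3mo IOP library and 174 and 182 in the controls. These markers gave no single direction with IOP at 3 months. The pigment genes Mlana (called), Pmel and Tyrp1 were higher without overlap, while Rpe65, Lrat, Ttr and Rdh5 overlapped the controls. The median log2 fold change of the 7 tested was -0.05. Replicate 1 of 3mo IOP held the highest Ftl1 level of the 8 single-IOP libraries as well. Markers of microglia and macrophages were at 48.5 and 35.6 FPKM in 3mo IOP against 19.7 and 26.7 in the controls, with 7 of 8 higher without overlap, a median log2 fold change of 0.66 and none called. Lens markers were at 6.41 and 36.9 FPKM in 3mo IOP against 16.3 and 10.5 in the controls, so here the library with the higher Trf had the lower lens sum. None of the 4 tested lens markers was called. The part of pigment epithelium, of microglia and of lens in the 3-month values of Trf, Cp and Ftl1 was not tested.

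At 18 months 0 of 10 members were called, where 0.124% of genes were called. The limma fit gave Trf a log2 fold change of 2.50 ± 0.51 (adjusted p = 0.116), Cp 1.88 ± 0.30 (adjusted p = 0.0903), Ftl1 1.03 ± 0.34 (adjusted p = 0.309), Heph 0.71 ± 0.21 (adjusted p = 0.247) and Tfrc -0.54 ± 0.21 (adjusted p = 0.412). The fitted values of Trf, Cp and Ftl1 exceeded 2-fold, but none passed the adjusted p. Without 18mo IOP replicate 1, Cp (2.33, adjusted p = 0.0103) and Trf (3.22, adjusted p = 0.0294) were called, in a refit with 144 genes called against 17 as reported. Without replicate 2 they were at 1.42 (adjusted p = 0.25) and 1.77 (adjusted p = 0.406), so the size of both values rests on which of these libraries is kept. The markers of the retinal pigment epithelium were at 4.02 FPKM or less in both 18mo IOP libraries, and those of microglia and macrophages were at 104 and 46.3 FPKM against 44.3 and 46.2 in the controls. Replicate 1 had the higher microglial sum and the lower Trf and Cp. Lens markers were at 5.49 and 20.1 FPKM against 2.88 and 4.12 in the controls, 4 of 4 tested higher without overlap, and replicate 2 had both the higher lens sum and the higher Trf and Cp. Rod markers were at 11425 and 13537 FPKM against 16864 and 15063, and blood markers at 54.3 and 44.3 against 166 and 426, with 5 of 5 lower without overlap. Muller glia markers were at 1372 and 1218 FPKM against 1211 and 946, with 4 of 6 higher without overlap and a median log2 fold change of 0.57, and endothelial markers at 69.5 and 70.8 against 50.2 and 49.7, with 1 of 5 higher without overlap. The part of these markers in the values of Trf and Cp was not tested.

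The directions could be set side by side over the 3 IOP comparisons, which share no library. Fth1, Ftl1, Trf, Cp and Heph were higher and Tfrc was lower in IOP than in control, without overlap, in all 3. Among the 11580 genes tested in both series, 11% were higher without overlap in all 3 comparisons and 0.691% were lower, beside 5 and 1 of the 10 members. Per comparison, 5 members were higher and 1 lower at 3 months (28.6% and 3.95% of all genes), 6 higher and 1 lower at 18 months (36.5% and 9.89%), and 6 higher and 1 lower after 4 elevations (27.7% and 12.7%), where the sixth was Aco1 at 18 months and Ireb2 after 4 elevations. With 2 libraries a group, such counts carry no p-value.

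The ratio of a storage to an uptake transcript within a library does not depend on scaling between libraries. Since Ftl1 was higher and Tfrc lower in IOP without overlap in each pair of groups, the separation of their ratio within a pair follows from those values and is not a further result. Ftl1 over Tfrc was 1.47 and 2.12 in the 3mo controls against 7.06 and 3.15 in 3mo IOP. At 18 months it was 2.35 and 2.13 in control and 5.25 and 8.65 in IOP. In the repeated-IOP series it was 1.63 and 2.40 in control and 7.51 and 6.61 in 4xIOP. The transcripts are 964 and 4893 bases long, so the length dependence of the libraries bears on this ratio, and its part was not tested. All 6 control values lay between 1.47 and 2.40, and all 6 IOP values lay between 3.15 and 8.65. Cp over Heph was likewise higher in IOP than in control in each pair of groups, most in 4xIOP at 58.5 and 105 against 11.0 and 16.0.

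**Figure D3:**
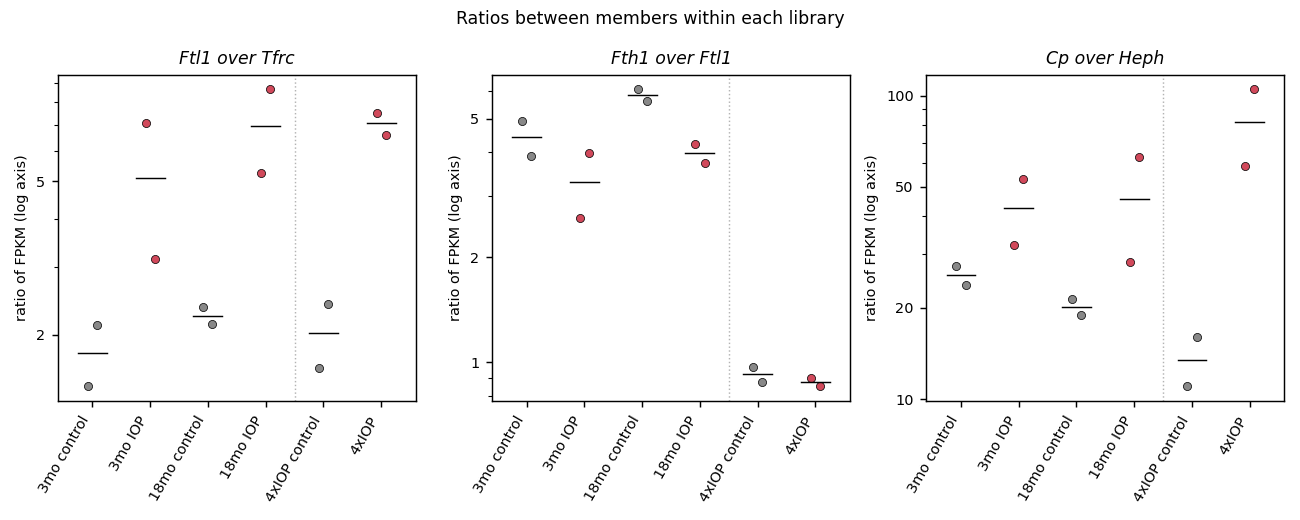
Ratios of FPKM within each library (log axes) for Ftl1 over Tfrc, Fth1 over Ftl1 and Cp over Heph. Points are libraries, grey for control and red for IOP, and bars are means of 2. Ftl1 over Tfrc separates all 6 IOP libraries (3.15 to 8.65) from all 6 controls (1.47 to 2.40), and Fth1 over Ftl1 drops below 1 in the repeated-IOP series.

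Whether age changed the response to a single elevation was tested as an interaction, the response at 18 months minus that at 3 months. None of the 10 members and 0% of all genes passed in limma, with 218 of 13731 genes and 0 members at an unadjusted p under 0.05. The difference was 1.61 ± 0.72 for Trf and 0.73 ± 0.42 for Cp on the log2 scale (adjusted p = 1.00 for both). These values moved with single libraries: without 18mo IOP replicate 2 they were 0.88 and 0.28, without 18mo IOP replicate 1 they were 2.33 and 1.18, and Trf was at 0.97 without 3mo IOP replicate 2 and at 2.25 without 3mo IOP replicate 1. A larger response of Trf and Cp at 18 months is therefore not shown.

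Age itself was compared between the controls and again between the IOP retinas. In controls 0 of 10 members passed both thresholds, where 23.2% of genes were called. On the adjusted p alone, 4 members passed in controls, where 45.9% of genes did. In limma these were Tfrc with a log2 fold change of -0.89 ± 0.21 (adjusted p = 0.0123), Slc11a2 with 0.72 ± 0.22 (adjusted p = 0.0289), Slc40a1 with 0.65 ± 0.20 (adjusted p = 0.0318) and Aco1 with 0.51 ± 0.18 (adjusted p = 0.0487). Shares of 0 and 4 of 10 are not above those of all genes. Each of these passes was lost under some of the alternatives, over which the limma adjusted p ran from 0.00406 to 0.0798 for Tfrc, from 0.00272 to 0.147 for Slc11a2, from 0.0196 to 0.148 for Slc40a1 and from 0.00836 to 0.221 for Aco1. Tfrc missed the threshold under quantile normalisation (-0.51, adjusted p = 0.0785) and without 18mo control replicate 1 (0.0798) or replicate 2 (0.0659).

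In the IOP retinas, 0 of 10 members passed both thresholds (21.8% of genes) and 5 passed on the adjusted p alone (42.6% of genes). By limma these were Tfrc at -0.86 ± 0.21 (adjusted p = 0.0154), Heph at 0.71 ± 0.21 (adjusted p = 0.0292), Slc40a1 at 0.62 ± 0.20 (adjusted p = 0.0407), Slc11a2 at 0.63 ± 0.22 (adjusted p = 0.0466) and Cp at 0.85 ± 0.30 (adjusted p = 0.0492). Tfrc, Slc40a1 and Slc11a2 thus passed that rule in both age comparisons. These passes too were each lost under some of the alternatives, over which the adjusted p ran from 0.00501 to 0.108 for Tfrc, from 0.0258 to 0.269 for Heph, from 0.0256 to 0.155 for Slc40a1, from 0.0203 to 0.177 for Slc11a2 and from 0.00627 to 0.270 for Cp. For Tfrc the losses were those without 18mo IOP replicate 2 (0.0836), 3mo IOP replicate 1 (0.0571) and 3mo IOP replicate 2 (0.108). The age comparisons share their libraries with the IOP comparisons, so the values are not independent of those above. Each control was the fellow eye of a treated animal, so both age comparisons may also rest on the same animals. A pass in both is therefore not a separate result, and the share of all genes that passed in both was not counted.

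Tfrc fell short of 2-fold with age by a small margin, and passed both thresholds in controls under median-of-ratios scaling (-1.06, adjusted p = 0.0109), with the trend on transcript length removed (-1.23, adjusted p = 0.00406) and with voom on recovered reads (-1.07, adjusted p = 0.0109). With the length trend removed it also passed in IOP retinas (-1.24, adjusted p = 0.00501). Leaving out 3mo control replicate 1 likewise made calls of Tfrc (-1.02) and Slc11a2 (1.01), in a refit with 4717 genes called against 3185 as reported. Without 18mo IOP replicate 1, Tfrc (-1.03), Cp (1.30) and Trf (1.87) were called between the IOP retinas. Without 18mo IOP replicate 2 these values were -0.69, 0.40 and 0.42, and none was called.

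The age values of the ferritins turned with the processing. As measured, Fth1 had a log2 fold change of -0.14 ± 0.27 in controls and -0.06 ± 0.27 in IOP retinas, and Ftl1 had -0.55 ± 0.34 and -0.36 ± 0.34, with limma adjusted p from 0.210 to 0.875. With the length trend removed, Fth1 was at 0.68 (adjusted p = 0.0106) and 0.79 (adjusted p = 0.00776), and Ftl1 at 0.25 (adjusted p = 0.355) and 0.47 (adjusted p = 0.106). The ferritin transcripts are 936 and 964 bases long, and short transcripts stood higher relative to long ones in every 3mo library than in any 18mo library, as given above. No direction with age can be given for either ferritin. Ireb2 also depended on this step: it had -0.28 (adjusted p = 0.247) in controls and -0.24 (adjusted p = 0.332) in IOP retinas as measured, and -0.68 (adjusted p = 0.00522) and -0.69 (adjusted p = 0.00606) with the length trend removed.

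**Figure D4:**
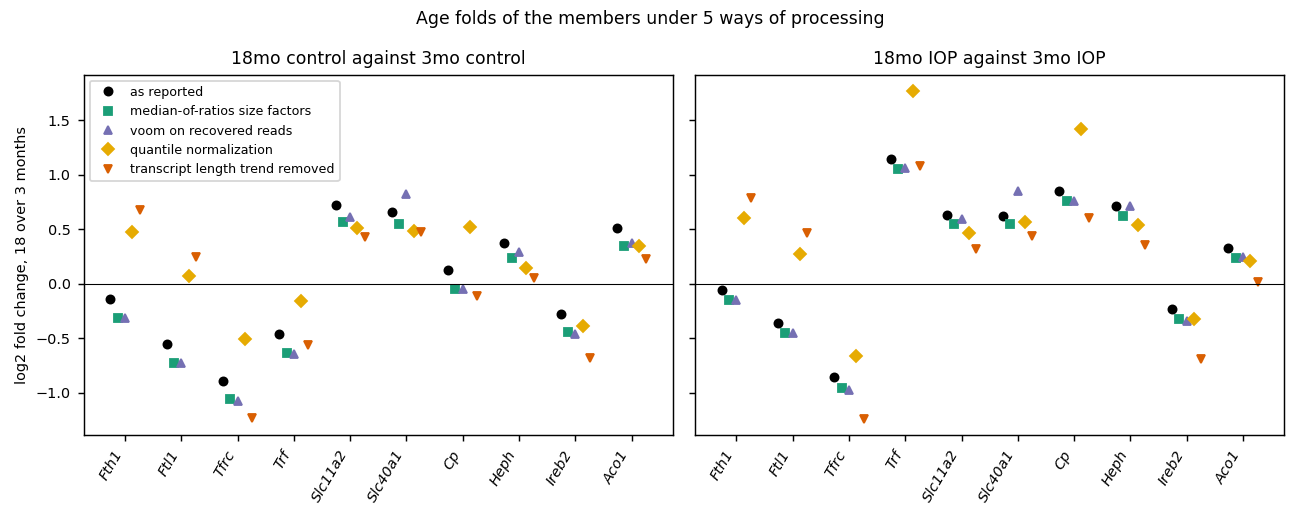
Log2 fold change of each member with age (vertical axes) between controls (left) and between IOP retinas (right), under 5 ways of processing. Fth1 and Ftl1 change sign when the length trend is removed or quantile normalisation is used, whereas Tfrc stays below 0 and Slc11a2, Slc40a1, Heph and Aco1 stay above 0 in all 5. Cp changes sign too in controls, at 0.12 as reported, -0.05 with median-of-ratios scaling, 0.52 with quantile normalisation and -0.11 with the length trend removed.

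Cell type markers also shifted with age. Endothelial markers (5 genes) summed to between 7.17 and 9.83 FPKM in 3mo control and to between 49.7 and 50.2 in 18mo control, all 5 called higher. Ganglion cell markers summed to between 159 and 180 FPKM in 3mo control and to between 26.9 and 58.6 in 18mo control, with 4 of 5 called lower. Muller glia markers went from between 463 and 593 FPKM to between 946 and 1211, with 3 of 6 called higher. Markers of microglia and macrophages went from between 19.7 and 26.7 FPKM to between 44.3 and 46.2, with 3 of 8 called higher. Oligodendrocyte markers went from between 3.34 and 4.41 FPKM to between 8.30 and 8.37, with both tested genes higher without overlap and 1 called. Blood markers lay between 19.5 and 262 FPKM in 3mo control and between 166 and 426 in 18mo control, with 1 of 5 called higher. All 7 tested markers of the retinal pigment epithelium were called lower. Of the rod markers 5 of 6 were lower without overlap, with 1 called (Sag), and of the lens markers 4 of 4 tested were lower without overlap, with none called. Between the IOP retinas, limma called 5 of 5 endothelial, 4 of 6 Muller glia, 3 of 8 microglia and macrophage and 1 of 2 oligodendrocyte markers higher. It called 5 of 5 ganglion cell, 7 of 7 pigment epithelium and 1 of 6 rod markers lower, and no blood or lens marker. The part of these differences in the age values of Tfrc, Slc40a1, Slc11a2, Aco1, Heph and Cp was not tested.

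**Figure D5:**
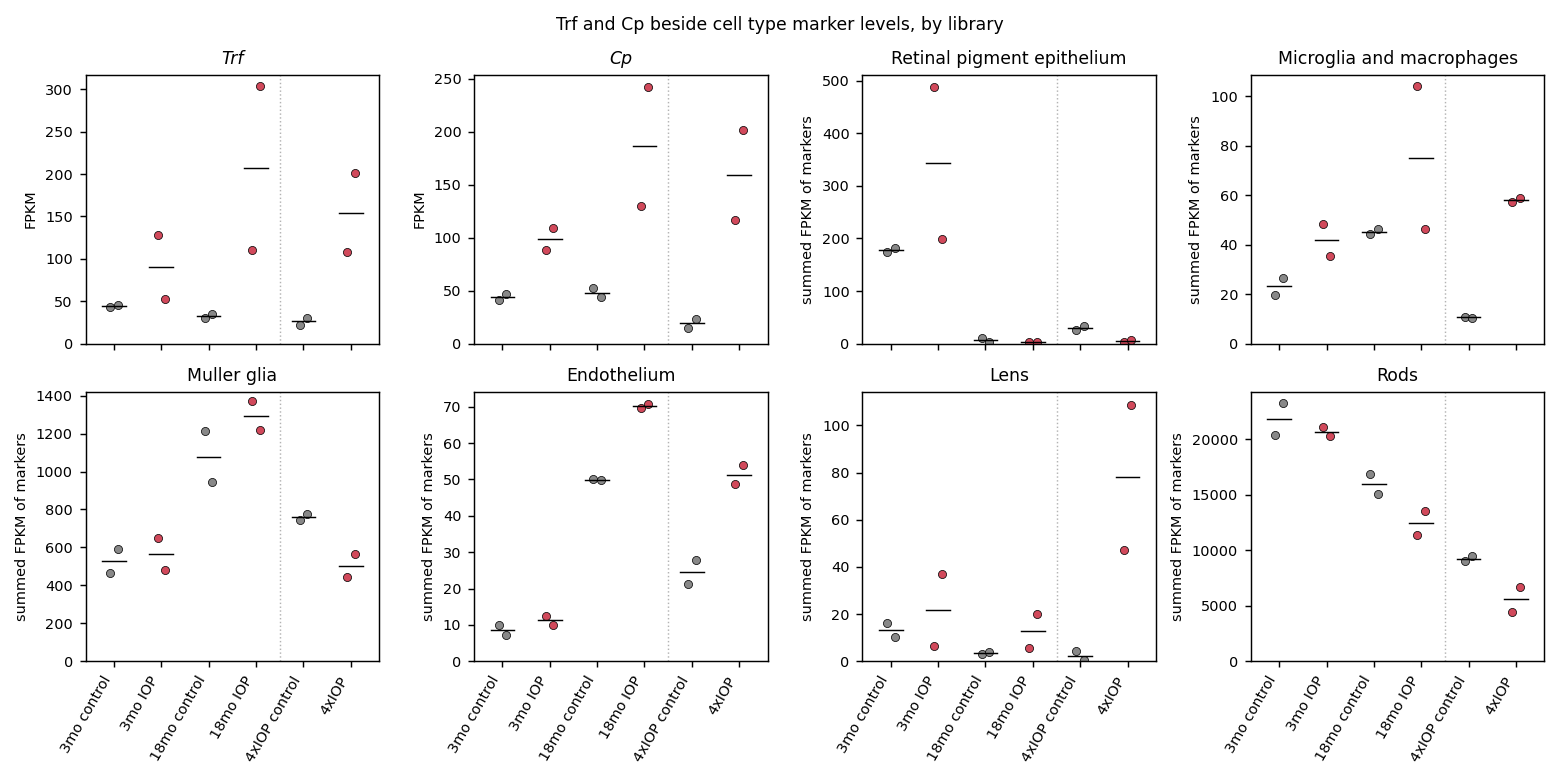
FPKM of Trf and Cp (first 2 panels) and summed FPKM of the markers of 6 cell types in the 12 libraries, all axes linear from 0. Points are libraries, grey for control and red for IOP, and bars are means of 2. In 4xIOP the pigment epithelium markers are low (3.41 and 6.70) while Trf and Cp are high, and the microglia and lens markers are high together with them.

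Other genes of iron and haem handling were taken from a list of 41 genes in the tables, of which 31 passed the filter on low values in the single-IOP table and 29 in that of the repeated-IOP series. After 4 elevations 6 of 29 were called higher and 0 lower by limma, where 6.15% of all genes were called in either direction. These were Lcn2, which binds bacterial iron carriers (log2 fold change 8.18, adjusted p = 8.20e-08), the haemoglobin binder haptoglobin (Hp, 2.51, adjusted p = 7.57e-05), the metalloreductase Steap4 (4.99, adjusted p = 1.32e-06), the haem oxygenase Hmox1 (2.77, adjusted p = 1.28e-06), the biliverdin reductase Blvrb (1.01, adjusted p = 0.00401) and the mitochondrial iron importer Slc25a37 (1.66, adjusted p = 0.000109). Hp was at 0 FPKM in the 4xIOP controls and at a mean of 2.47 ± 1.16 FPKM (SD) in 4xIOP. The size of its log2 fold change therefore rests on the constant added to FPKM before the logarithm. Hp did not pass the filter on low values in the single-IOP table and was not tested there. None of the 4 tested genes of storage and delivery and none of the 3 of the hepcidin axis was called. The median of the 29 genes was 0.22.

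At 18 months a single elevation gave 1 call of 31, Steap4 (3.40, limma adjusted p = 0.0443), where 0.124% of all genes were called, and at 3 months 0 of 31, where 0.575% were. No gene had a lower adjusted p than Steap4 at 18 months, but the adjustment can give several genes the same value, so Steap4 is not shown to rank first. With the replicate number as a block 0 genes were called there, Steap4 included. The median of the 31 genes at 3 months was 0.25, against 0.13 over all genes. At 3 months Steap4 was at 2.07 (adjusted p = 0.0980), the lowest p of the list, and its group mean was 19.1 times that of the controls, from 0.107 to 2.05 ± 0.093 FPKM (SD, n = 2). At 18 months Steap4 rose 19.6-fold in the mean, from 0.740 ± 0.149 to 14.5 ± 10.4 FPKM (SD, n = 2), so its 18mo IOP libraries lay far apart. Its interaction of IOP with age was 1.34 (adjusted p = 1.00). Lcn2 was at 4.56 (adjusted p = 0.0903) at 18 months and at 3.33 (adjusted p = 0.131) at 3 months. Its 18mo IOP libraries also lay far apart, with a mean of 232 ± 249 FPKM (SD, n = 2). With age in controls, limma called 3 of the 31 higher, namely the hemojuvelin-binding receptor Neo1 (1.40), Slc25a37 (1.92) and the haem-haemopexin receptor Lrp1 (1.43), and called 1 lower, the iron-sulphur scaffold Iscu (-1.17), beside 23.2% of all genes called. In the IOP retinas 4 were higher (Steap4, Neo1, Slc25a37 and Lrp1) and 3 lower (Steap1, Iscu and Blvrb), beside 21.8% of all genes. The part of the length dependence of the libraries in these calls was not tested.

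The genes most like each member were sought among 11579 others by Pearson r of log2(FPKM + 0.5) over the 8 single-IOP libraries, which share age and IOP groups and the length dependence. For Cp these were Lcn2 (r = 0.989), Spsb1 (0.988) and Jpt2 (0.986), with r of 0.982, 0.996 and 0.962 over the 4 libraries of the repeated-IOP series. For Fth1 they were S100a16 (0.996), Snhg18 (0.990) and S100a13 (0.989), with 0.998, 0.769 and 0.982 over the 4 libraries. For Trf they were Ppp4r2 (0.960), Upp1 (0.956) and Rnd3 (0.953), with 0.260, 0.991 and 0.677. For Heph they were Tnfrsf1b (0.988), Mcub (0.980) and Cd74 (0.979), with 0.972, 0.962 and 0.980. The neighbours of Slc11a2, Slc40a1 and Aco1 had values over the 4 libraries that ranged from -0.894 to 0.666. Those 4 libraries are controls and 4xIOP retinas, so any genes that rise together with IOP there have a high r. A high value over them is therefore no separate support for a likeness.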

How the data were processed

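RNA extracted in TRIzol went into strand-specific poly(A) libraries for NovaSeq sequencing. Per the submitters' processing notes and the study's methods, reads were mapped to mm10 with STAR 2.7.8a and HOMER counted exonic tags with a unique map position, from the transcribed strand only, for 1 isoform per locus. The authors deposited FPKM in 2 tables normalised separately, 1 for each series, and used DESeq2 1.24.0 for tests of their own, whose values are not in these columns. Replicates were not pooled. The members and the gene and marker lists were chosen with earlier results of these data known.

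From FPKM, transcript length and the steps of low values, the tags of each library (39766237 to 59455057) and whole reads were recovered. All values checked (100%) came to whole reads, within rounding and 0.05 of a read. Of these tags 44.2% to 71.5% lay in exons. Intervals from reads would cover counting error only.

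Since FPKM are not counts, limma 3.58.1 in R 4.3.3 (lmFit, eBayes, trended prior) was run on log2(FPKM + 0.5) for genes averaging 0.5 FPKM or more. A first fit took the 8 single-IOP libraries in 4 groups (4 residual degrees of freedom, prior 4.12), and a separate fit the 4 repeated-IOP libraries (2, prior 10.6). Adjusted p-values are Benjamini-Hochberg over 13731 and 13718 genes. The named genes are the 10 members, the called or lowest-p genes of the iron and haem lists, and the 3 genes most correlated with a member. The labels do not say that the 2 libraries of a group came from separate animals (the study's text calls those of its IOP comparisons, single and repeated, biological replicates), so p-values measure only the spread between these samples. The fit was first tested on simulated tables with known changes. Unique mapping leaves out reads shared with processed copies of the ferritin genes. The 7 other rows whose symbols begin with Fth or Ftl held at most 20 reads in a library, and the mitochondrial ferritin Ftmt was at 0 FPKM in all. Alternatives were other pseudocounts, filters, scalings, the removal of a trend on transcript length (natural spline, 5 df), voom on recovered reads, a replicate block and leaving out each library. Sequences come from GENCODE M21.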

Additional observations from a re-analysis of the deposited data

How the results depend on the processing

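The 31 log2 fold changes tested under these alternatives were refitted 451 times. Of the refits 425 kept their direction and their side of the thresholds, 14 gained a call, 0 lost one and 12 turned direction. A call here means both thresholds, so passes with age on the adjusted p alone, which were lost as given above, are not among these. Cp and Trf after 4 elevations were called under every alternative, with log2 fold changes of 2.60 to 3.39 for Cp and 2.03 to 2.94 for Trf.

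Among these 31 the turns concerned the ferritins with age. Values of other members near 0 turned as well, among them Cp with age in controls in 4 of 14 refits, Aco1 after 4 elevations in 4 of 14 and Ireb2 with IOP at 3 months in 3 of 15, none of them called. In controls Fth1 was at 0.47 and Ftl1 at 0.074 under quantile normalisation, and at 0.68 and 0.25 with the length trend removed. Leaving out 1 library gave Fth1 -0.37 to 0.084, the latter without 3mo control replicate 2. Between IOP retinas, Fth1 was at 0.61 and Ftl1 at 0.28 under quantile normalisation, and at 0.79 and 0.47 with the length trend removed. Leaving out 1 library gave Fth1 -0.15 to 0.042 and Ftl1 -0.76 to 0.042, above 0 without 3mo IOP replicate 1 for both and without 18mo IOP replicate 1 for Fth1. The cause was not tested.

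The count of members called with age in controls, 0 as reported, was 1 with median-of-ratios scaling, with the length trend removed and with voom, and 4 on adjusted p alone. It was 0 to 2 on leaving out a library, where 1176 to 4717 genes were called in all, the most in the refit with 2 members. Between IOP retinas it was 2 with quantile normalisation, 1 with the length trend removed, 5 on adjusted p alone, and 0 to 3 on leaving out a library, where 722 to 2811 genes were called, the most in the refit with 3. At 18 months it was 0 to 2, and after 4 elevations 2 to 4, on leaving out a library. It was 3 after 4 elevations without a trend in eBayes. A left-out library leaves its group with 1 sample, taken to vary like the others.

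With the replicate number as a block, 0 members were called at 3 and 18 months and in the interaction, and 2 after 4 elevations. The labels do not say that a number marks an animal. Deviations of same-numbered libraries correlated at -0.275, -0.530 and -0.290, so the numbers were not taken to pair the retinas. The block moved the count over all genes from 79 to 20 at 3 months, from 17 to 0 at 18 months and from 843 to 864 after 4 elevations.

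Over all genes the calls with age in controls were 1595 higher and 1590 lower, and 1056 and 1959 with median-of-ratios scaling, which moved the median log2 fold change of all genes from 0.16 to 0.01. Over the alternatives that keep all libraries, 3 to 120 genes were called at 3 months against 79 as reported, 0 to 41 at 18 months against 17, and 475 to 1090 after 4 elevations against 843. The fit limited to the 2 groups compared was not used for the interaction or the repeated-IOP series. Slc40a1, and Heph in the repeated-IOP series, have no value with a filter of at least 2 FPKM.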

Other observations

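Fth1 over Tfrc was 7.25 to 32.2 in the 8 single-IOP libraries and 1.58 to 6.76 in the 4 repeated-IOP libraries, while Ftl1 over Tfrc spanned 1.47 to 8.65 in the former and 1.63 to 7.51 in the latter. The ranges of the series do not overlap for Fth1 and overlap for Ftl1.

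Trf over Tfrc, the carrier to its receptor, was 0.597 to 1.07 in the 6 control libraries and 1.16 to 15.6 in the 6 IOP libraries. The lowest IOP value, 1.16 in 3mo IOP replicate 2, lay close to the highest control value.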
